A study of Mus musculus with 12 samples.

Results

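The skeletal muscle genes examined here are 39 genes of the muscle lineage and the contractile apparatus: the myogenic transcription factors with 2 satellite cell genes, the proteins of thick and thin filaments and of the Z-disc, the acetylcholine receptor, and the proteins that couple excitation to contraction. A member was taken as the probe set annotated with its symbol and no other. All 39 had a probe set, exactly 1 each, among the 28853 on the array, of which 21789 carried a single symbol. The values came from 12 cultures of mouse embryonic fibroblasts, grown from male C57BL/6J embryos of stage E12.5-14.5 and harvested at passage 5, with 1 Affymetrix Mouse Gene 1.0 ST array per culture. Cultures fell into 4 groups of 3, which received no treatment. The group mTERT KO lacked Tert, the gene of the telomerase reverse transcriptase, and mTR KO lacked Terc, the gene of the telomerase RNA. Each had wild types of its own line, mTERT WT and mTR WT, and the design text describes the knockout and wild-type embryos of a set as littermates. All knockouts were of the first generation (G1) without telomerase. The series compares the effects of the 2 deletions on gene expression. Because the fibroblasts were grown from embryos, a culture can hold other cell types of the embryo, and in bulk RNA fewer cells of a type and less RNA per cell cannot be told apart.

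Skeletal muscle forms from myoblasts, whose fate is set by the basic helix-loop-helix factors Myf5, Myod1, Myf6 and Myog. These factors bind E-boxes in the promoters of muscle genes, and Myog is needed for myoblasts to mature into fibres, which then build sarcomeres. In the sarcomere, myosin of the thick filament pulls on actin of the thin filament, and troponin and tropomyosin make that contact depend on calcium. Several of these genes are not restricted to skeletal muscle: Des, Acta1 and Actc1 can be expressed in smooth muscle cells or myofibroblasts, and Actc1, Tnnt2, Tnnc1, Myl4 and Myh7 belong to the heart program as well. Embryonic fibroblasts can be turned into muscle by forced expression of Myod1.

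Values are log2 signals of the deposited table. A signal was counted as above background where it exceeded that of 95% of the 1035 probe sets for olfactory receptors on the same array, a level between 4.93 and 5.09. Signals of different probe sets are not a measure of relative abundance, because each probe set has its own response. By this measure 11 of 39 members (28.2%) lay above background in all 12 cultures, against 53.4% of all probe sets, and 16 (41.0%) in none, against 33.2% of all probe sets. A further 8 were above it in 3 to 11 cultures and 4 in 1 or 2 cultures. A stricter level changed these counts: with a level above 99% of those probe sets, or with the median of each array, 10 members lay above background in 3 or more cultures, where the first level gave 19. The plot of all members by culture shows the signals of Acta1, Des, Actc1 and Tnnt2 well above background, and most others at its edge or below it.

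**Figure D1:**
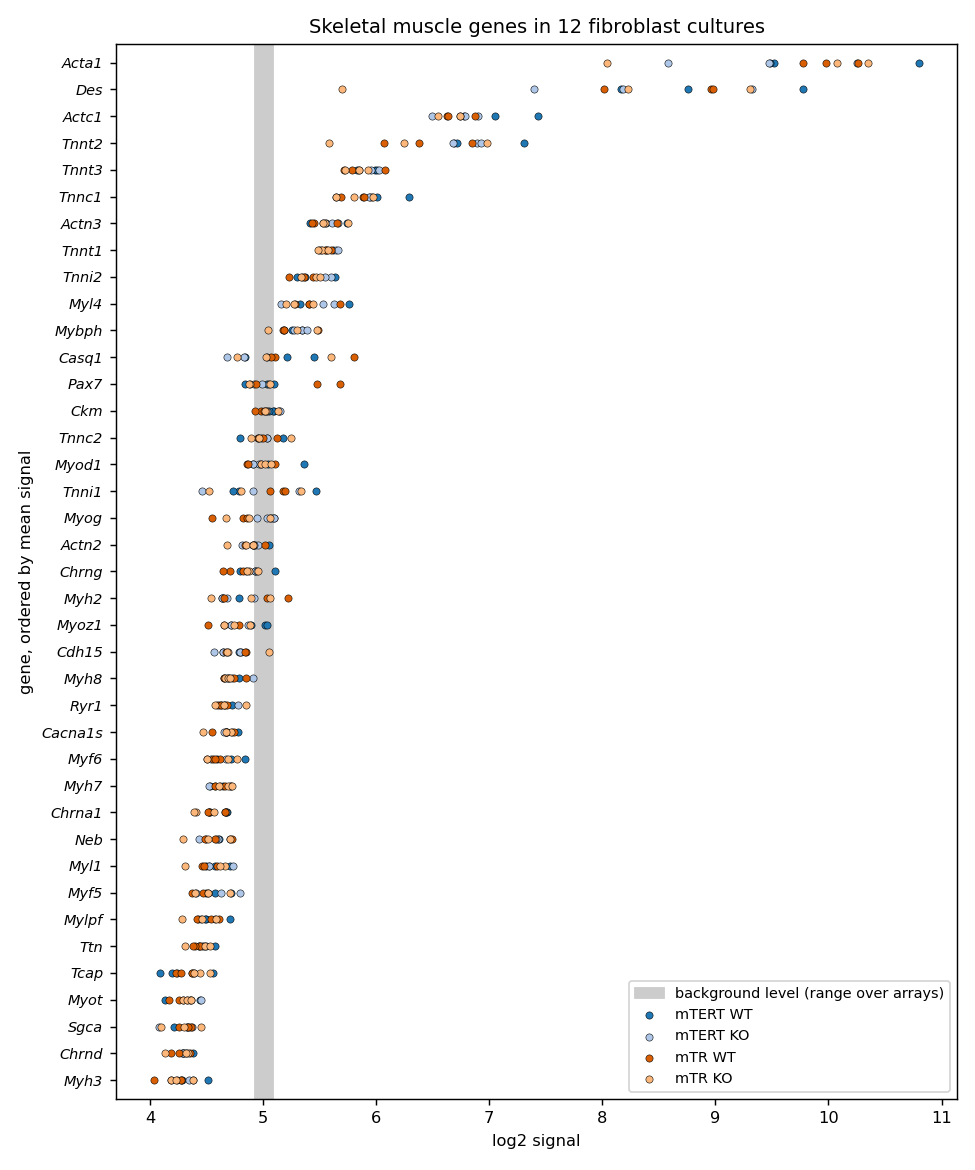
Log2 signal (horizontal axis) of the 39 members (vertical axis, ordered by mean signal) in 12 cultures, 1 point per culture coloured by group, with the range of the background level over arrays in grey. The 11 members above background in all 12 cultures are the upper 11, and Des and Acta1 have the widest spread.

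Promoter sequences of 3 members are printed because these genes lay above background in every culture and Des and Acta1 moved together across cultures, as described below. They are the 250 bases before the annotated start, 5′ to 3′ on the strand of the gene, from the RefSeq promoter table of build GRCm38.p6, in which 29 of the 39 members were found. Capitals mark a CArG box, the motif known to be bound by serum response factor, or CAGCTG, a form of the E-box. A CArG box was counted only as an exact match to CCWWWWWWGG, where W is A or T. Near matches were neither marked nor counted. The stretches are chr8:123894776-123895025 on the minus strand for Acta1, chr1:75360042-75360291 on the plus strand for Des and chr2:114052876-114053125 on the minus strand for Actc1.
Acta1: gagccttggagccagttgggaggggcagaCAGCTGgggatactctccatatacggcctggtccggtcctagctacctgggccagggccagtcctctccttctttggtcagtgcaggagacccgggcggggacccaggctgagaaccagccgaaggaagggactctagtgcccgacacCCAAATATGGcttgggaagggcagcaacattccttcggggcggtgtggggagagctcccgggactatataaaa
Des: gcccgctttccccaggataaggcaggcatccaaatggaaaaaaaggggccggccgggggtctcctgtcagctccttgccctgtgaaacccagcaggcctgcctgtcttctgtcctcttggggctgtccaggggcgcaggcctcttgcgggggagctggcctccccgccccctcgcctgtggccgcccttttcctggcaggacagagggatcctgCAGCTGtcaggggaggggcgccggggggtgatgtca
Actc1: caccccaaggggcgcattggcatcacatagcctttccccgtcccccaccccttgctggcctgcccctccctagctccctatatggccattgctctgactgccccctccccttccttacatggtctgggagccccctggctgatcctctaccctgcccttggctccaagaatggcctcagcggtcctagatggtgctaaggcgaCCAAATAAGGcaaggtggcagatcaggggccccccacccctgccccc

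The Acta1 stretch held 1 CArG box, whose first base lay 73 bases before the start, and 1 CAGCTG at 221 bases. The Des stretch held 1 CAGCTG at 36 bases and no match to the CArG box, and the Actc1 stretch held 1 CArG box at 47 bases and no CAGCTG. Both strands were searched. Of all 32851 promoter entries of this length 1.47% held a CArG box and 13.0% held CAGCTG. Among the 32 entries of members 2 (6.25%) held the former and 13 (40.6%) the latter. The general E-box CANNTG, of which CAGCTG is one form, was in 66.2% of all entries and 26 (81.2%) of the members' entries, and TATAAA in 12.4% and 6 (18.8%). These are matches of letters, and no binding was measured here.

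The myogenic regulators lay at the edge of background or below it, apart from Myod1 in 1 culture and Pax7 in 2 cultures. Myf5 and Myf6, a determination factor and a late-acting factor of the same family, were above it in 0 of 12 cultures, with signals between 4.38 and 4.80 and between 4.51 and 4.84. Cdh15, the M-cadherin of satellite cells, exceeded it in 1 culture, at 5.05 in mTR KO 1.
Myod1, the determination factor, read 5.04, 4.91 and 5.36 in mTERT WT cultures 1 to 3, 4.96, 4.91 and 4.99 in mTERT KO, 4.85, 4.87 and 5.11 in wild types of the mTR line and 4.98, 5.01 and 5.07 in its knockouts. It was above background in 6 cultures spread over all 4 groups, and apart from mTERT WT 3 it stayed at the edge of that level.
Myog, the factor of terminal differentiation, read 5.06, 5.08 and 5.10 in mTERT WT, 5.03, 4.94 and 5.10 in mTERT KO, 4.83, 4.55 and 4.86 in wild types of the mTR line and 4.67, 4.87 and 5.06 in its knockouts. All 3 mTERT WT cultures lay above all 3 mTR WT cultures, whose signals were below background.
Pax7, the satellite cell factor, read 5.10, 4.84 and 5.03 in mTERT WT, 4.92, 4.99 and 5.05 in mTERT KO, 5.48, 4.94 and 5.68 in wild types of the mTR line and 4.88, 4.87 and 5.06 in its knockouts. The mTR WT cultures 1 and 3 stood above all others, while mTR WT 2 was among the mTR KO values.

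Of the 8 thick filament members, 5 were above background in 0 cultures: the embryonic, perinatal and slow myosin heavy chains Myh3, Myh8 and Myh7 and the light chains Myl1 and Mylpf. Their signals lay between 4.04 and 4.91. Myh2, the heavy chain of fast IIa fibres, read 4.64, 4.78 and 4.64 in mTERT WT, 4.68, 4.92 and 4.64 in mTERT KO, 5.04, 4.66 and 5.22 in wild types of the mTR line and 4.54, 4.89 and 5.06 in its knockouts. It was above background in 3 cultures, mTR WT 1, mTR WT 3 and mTR KO 3.
Myl4, the light chain of embryonic muscle and atrium, was above background in every culture and read 5.33, 5.41 and 5.76 in mTERT WT, 5.53, 5.16 and 5.63 in mTERT KO, 5.68, 5.28 and 5.41 in wild types of the mTR line and 5.20, 5.27 and 5.44 in its knockouts. Mybph, a myosin-binding protein, read 5.26, 5.19 and 5.35 in mTERT WT, 5.34, 5.27 and 5.39 in mTERT KO, 5.49, 5.18 and 5.18 in wild types of the mTR line and 5.04, 5.30 and 5.48 in its knockouts. The groups of each line overlapped for both genes.

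The thin filament held most of the members with signal throughout: 7 of its 10 members were above background in all 12 cultures. Acta1, the skeletal muscle actin, read 9.52, 9.49 and 10.80 in mTERT WT, 9.47, 8.58 and 10.26 in mTERT KO, 9.98, 10.26 and 9.77 in wild types of the mTR line and 8.04, 10.07 and 10.35 in its knockouts. Its group means were 9.93 ± 0.75, 9.44 ± 0.84, 10.00 ± 0.24 and 9.49 ± 1.26 (SD, n = 3) in that order. The culture mTR KO 1 was the lowest and mTERT KO 2 the next, and the groups overlapped in both lines.
Actc1, the cardiac actin that is also made in embryonic skeletal muscle, read 6.78, 7.05 and 7.43 in mTERT WT, 6.79, 6.49 and 6.90 in mTERT KO, 6.88, 6.62 and 6.63 in wild types of the mTR line and 6.54, 6.74 and 6.74 in its knockouts. The cultures mTERT WT 2 and 3 were the highest of the 12. Muscle actins are nearly alike in coding sequence, so signal of one can reach probes of another. Acta2, the smooth muscle actin, read between 13.00 and 13.35 over the 12 cultures, a far smaller spread than that of Acta1, with its lowest value in the same culture, mTR KO 1. Sharing of signal between these probe sets was not tested.

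Among the troponins, which make the thin filament respond to calcium, Tnnt2 varied most between cultures. Tnnt2, the troponin T of heart and embryonic muscle, read 7.31, 6.69 and 6.72 in mTERT WT, 6.89, 6.68 and 6.92 in mTERT KO, 6.85, 6.38 and 6.07 in wild types of the mTR line and 5.59, 6.25 and 6.98 in its knockouts. The lowest culture was again mTR KO 1.
Tnnc1, the troponin C of heart and slow muscle, read 5.65, 6.01 and 6.29 in mTERT WT, 5.96, 5.94 and 5.94 in mTERT KO, 5.89, 5.89 and 5.69 in wild types of the mTR line and 5.65, 5.97 and 5.81 in its knockouts. The highest culture was mTERT WT 3.
Tnnt3, the troponin T of fast muscle, read 5.83, 5.99 and 6.01 in mTERT WT, 6.03, 5.96 and 5.85 in mTERT KO, 6.08, 5.79 and 5.72 in wild types of the mTR line and 5.72, 5.93 and 5.85 in its knockouts. Tnni2, the fast troponin I, read 5.30, 5.37 and 5.64 in mTERT WT, 5.60, 5.35 and 5.55 in mTERT KO, 5.44, 5.23 and 5.36 in wild types of the mTR line and 5.34, 5.47 and 5.50 in its knockouts. Tnnt1, the slow troponin T, read 5.50, 5.62 and 5.57 in mTERT WT, 5.64, 5.66 and 5.51 in mTERT KO, 5.60, 5.55 and 5.55 in wild types of the mTR line and 5.52, 5.49 and 5.58 in its knockouts. These 3 genes and Tnnc1 were above background in every culture, and their groups overlapped within each line.
Tnni1, the slow troponin I, read 4.78, 4.73 and 5.47 in mTERT WT, 4.91, 4.46 and 5.32 in mTERT KO, 5.06, 5.17 and 5.19 in wild types of the mTR line and 4.52, 4.81 and 5.34 in its knockouts. Culture 3 was above background in each group, and of the other cultures only mTR WT 1 and 2. Tnnc2, the fast troponin C, read 4.80, 5.03 and 5.18 in mTERT WT, 4.96, 5.03 and 4.98 in mTERT KO, 4.95, 5.12 and 5.00 in wild types of the mTR line and 4.89, 5.25 and 4.96 in its knockouts, above background in 7 cultures. Neb, the giant protein nebulin, was above background in 0 cultures.

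Of the Z-disc, titin and intermediate filament members, 2 of 7 were above background throughout. Des, the muscle intermediate filament desmin, read 8.17, 8.76 and 9.77 in mTERT WT, 8.18, 7.40 and 9.32 in mTERT KO, 8.96, 8.98 and 8.02 in wild types of the mTR line and 5.70, 8.23 and 9.30 in its knockouts. The group means were 8.90 ± 0.81, 8.30 ± 0.97, 8.65 ± 0.55 and 7.74 ± 1.85 (SD, n = 3). As with Acta1, mTR KO 1 was the lowest culture and mTERT KO 2 the next.
Actn3, the alpha-actinin of fast fibres, read 5.41, 5.75 and 5.56 in mTERT WT, 5.67, 5.53 and 5.61 in mTERT KO, 5.65, 5.45 and 5.43 in wild types of the mTR line and 5.55, 5.53 and 5.75 in its knockouts, above background in each. Ttn, Tcap and Myot, the giant protein titin, its cap and myotilin, were above background in 0 cultures, Actn2 in 2 cultures and Myoz1, a calcineurin-binding Z-disc protein, in 1. Myoz1 read 4.90, 5.02 and 5.03 in mTERT WT, 4.86, 4.72 and 4.71 in mTERT KO, 4.79, 4.65 and 4.52 in wild types of the mTR line and 4.66, 4.74 and 4.88 in its knockouts.

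The members of the acetylcholine receptor, of excitation-contraction coupling and of the muscle membrane, and Ckm, gave little signal. The acetylcholine receptor subunits Chrna1 and Chrnd were above background in 0 cultures and the embryonic subunit Chrng in 1, at 5.11 in mTERT WT 3. Ryr1, the calcium release channel, Cacna1s, the voltage sensor that opens it, and Sgca, a sarcoglycan of the muscle membrane, were above background in 0 cultures.
Casq1, which stores calcium in the sarcoplasmic reticulum, read 4.84, 5.22 and 5.45 in mTERT WT, 4.83, 4.68 and 5.04 in mTERT KO, 5.10, 5.81 and 5.07 in wild types of the mTR line and 4.77, 5.60 and 5.02 in its knockouts. The cultures mTR WT 2 and mTR KO 2 were the highest. Ckm, the muscle creatine kinase, read 5.09, 5.09 and 5.05 in mTERT WT, 5.14, 5.15 and 5.04 in mTERT KO, 4.98, 4.93 and 5.01 in wild types of the mTR line and 5.03, 5.13 and 5.02 in its knockouts. It was above background in 8 cultures, by a small margin in each.

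No member passed the test in any comparison. The question of the series is what loss of either telomerase component does to expression, and each knockout was set against its own wild type with limma, adjusted over all 28853 probe sets at a threshold of 0.05. In the mTERT comparison 0 of 39 members were called, against 1 probe set of all (0.00347%), and the adjusted p was 1 for each member. That probe set was Tert, which served as a check of the labels: it read 4.99, 4.83 and 4.75 in mTERT KO and 5.51 to 5.80 in the other cultures (−0.79 ± 0.08 standard error, adjusted p = 0.0352). With single cultures left out the count of probe sets called ran from 0 to 2. Terc was above background in 0 of 12 cultures, so the array gave no such check for the mTR line.
The median difference of the members, mTERT KO minus mTERT WT, was −0.03, against 0.00 for all probe sets, and 26 of 39 were negative. Des differed by −0.60 ± 0.80, Acta1 by −0.50 ± 0.59 and Casq1 by −0.32 ± 0.24. These errors pool the 4 groups and take no account of pairs. In the paired fit described below, which called 0 members, each of these genes had an unadjusted p under 0.05. A limit of those p-values is given there. Single cultures moved the differences: Des ran from −0.15 without mTERT KO 2 to −1.11 without mTERT KO 3, and was −0.16 without mTERT WT 3 and −0.97 without mTERT WT 1. Acta1 ran from −0.07 without mTERT WT 3 or mTERT KO 2 to −0.91 without mTERT KO 3, and Casq1 from −0.18 without mTERT WT 3 to −0.49 without mTERT WT 1. At an unadjusted p under 0.05 there were 2 of 39 members, Actc1 (−0.36 ± 0.16) and Myoz1 (−0.22 ± 0.09). Of all 28853 probe sets there were 553, a smaller share than of the members, and this gap was not tested. Without mTERT WT 3 the difference of Actc1 was −0.19. Myoz1 was also the only member whose mTERT groups did not overlap, 2.56% of the members against 5.97% of all probe sets, and its knockout values lay below background.

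The replicate numbers of the mTERT line were taken to mark pairs, which the labels do not state. Within these pairs the differences were uneven. Des differed by 0.01, −1.36 and −0.45 in pairs 1, 2 and 3, Acta1 by −0.04, −0.91 and −0.55 and Actc1 by 0.01, −0.55 and −0.53. Casq1 differed by −0.01, −0.54 and −0.42 and Myoz1 by −0.03, −0.30 and −0.32, so pair 1 showed next to no difference for these genes. Tnnt2 ran the other way, with −0.42, −0.01 and 0.21. A paired fit of the 6 mTERT arrays alone, added after the data were seen, called 0 members and 0 of all probe sets. There 5 of 39 members, Acta1, Actc1, Myoz1, Des and Casq1, had an unadjusted p under 0.05. So had 1604 of 28853 probe sets, a smaller share than of the members, and this gap was not tested. The smallest adjusted p of a member was 0.719. In limma the spread of a gene is drawn toward that of all probe sets, and Des and Acta1 varied more than most. Their p can thus be smaller than the 3 uneven pair differences alone would give.

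**Figure D2:**
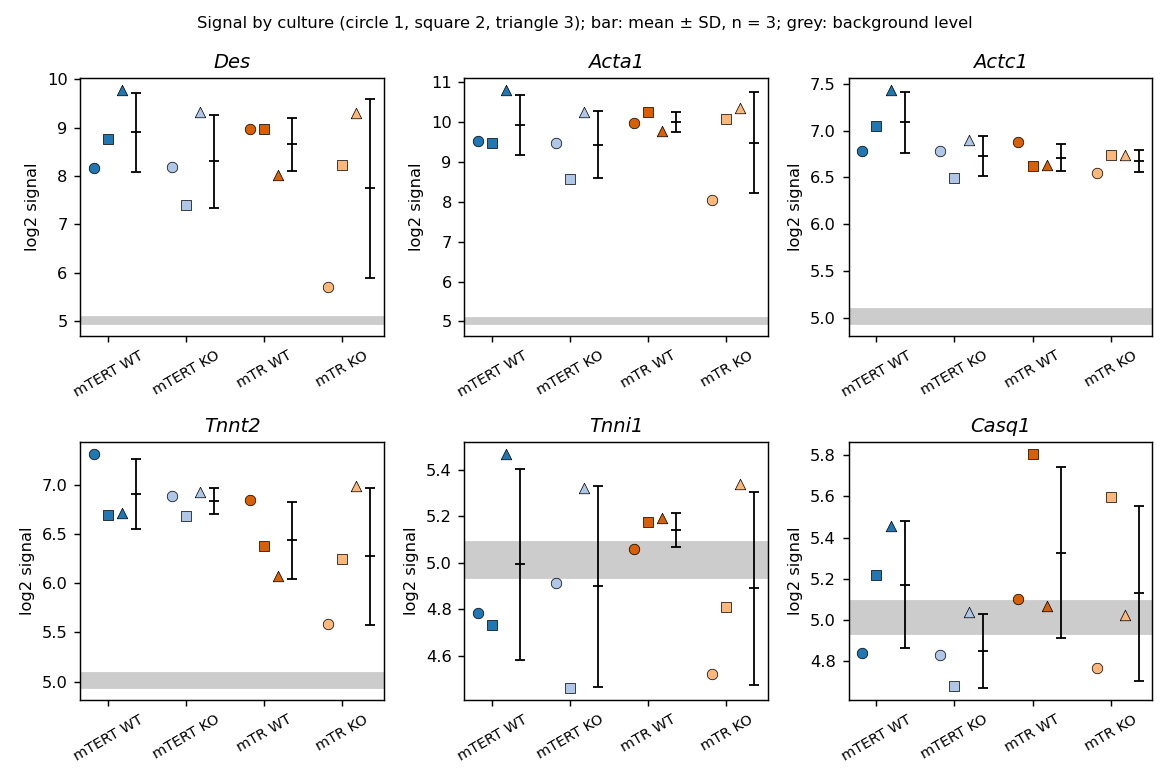
Log2 signal (vertical axis, scale of its own for each gene) of 6 members in the 4 groups, with circles, squares and triangles for cultures 1, 2 and 3, bars for the mean ± SD (n = 3) and the background level in grey. The groups of each line overlap for each of these genes, and mTR KO 1 is the lowest culture for Des, at 5.70, and for Acta1, at 8.04.

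In the mTR comparison 0 of 39 members were called, as were 0 of all probe sets (0.0%), and the adjusted p of members ran from 0.839 upward. The median difference, mTR KO minus mTR WT, was −0.01, against 0.00 for all, with 21 of 39 negative. Des differed by −0.91 ± 0.80 (adjusted p = 0.861) and Acta1 by −0.52 ± 0.59 (adjusted p = 0.897). Both rested on 1 culture: without mTR KO 1, Des differed by 0.11 and Acta1 by 0.21, and 9 of 39 members were negative.
Pax7 was the single member of 39 with an unadjusted p under 0.05 (−0.43 ± 0.15, adjusted p = 0.839), and its groups overlapped. Of all 28853 probe sets 1679 had such a p, a larger share than of the members. Its difference was −0.27 without mTR WT 3 and −0.64 without mTR WT 2, and its unadjusted p was above 0.05 without mTR WT 1, mTR WT 3 or mTR KO 2. In a fit of the 6 mTR arrays alone, 0 members had an unadjusted p under 0.05. Tcap (0.16 ± 0.11), Chrng (0.17 ± 0.08) and Ckm (0.09 ± 0.06) were higher in all 3 mTR KO cultures than in all 3 mTR WT cultures. These 3 are 7.69% of the members, against 11.4% of all probe sets whose mTR groups did not overlap. All 6 values of Tcap and of Chrng were below background. In the same comparison all 9 macrophage genes measured differed upward (median 0.80) and 0 of them were called. That median was 0.38 without mTR KO 1, 0.18 without mTR WT 1, 1.35 without mTR KO 3 and 1.25 without mTR WT 3.

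The test of the difference between the 2 knockout effects called 0 members and 0 of all probe sets (0.0%). Myoz1 had the only unadjusted p under 0.05 among the 39 members (0.33 ± 0.12, mTR effect minus mTERT effect, adjusted p = 1.0). Of all 28853 probe sets 965 had such a p, a larger share than of the members. Its mTERT difference was −0.22 and its mTR difference 0.11. The plot of differences with their errors shows both effects for every member.

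**Figure D3:**
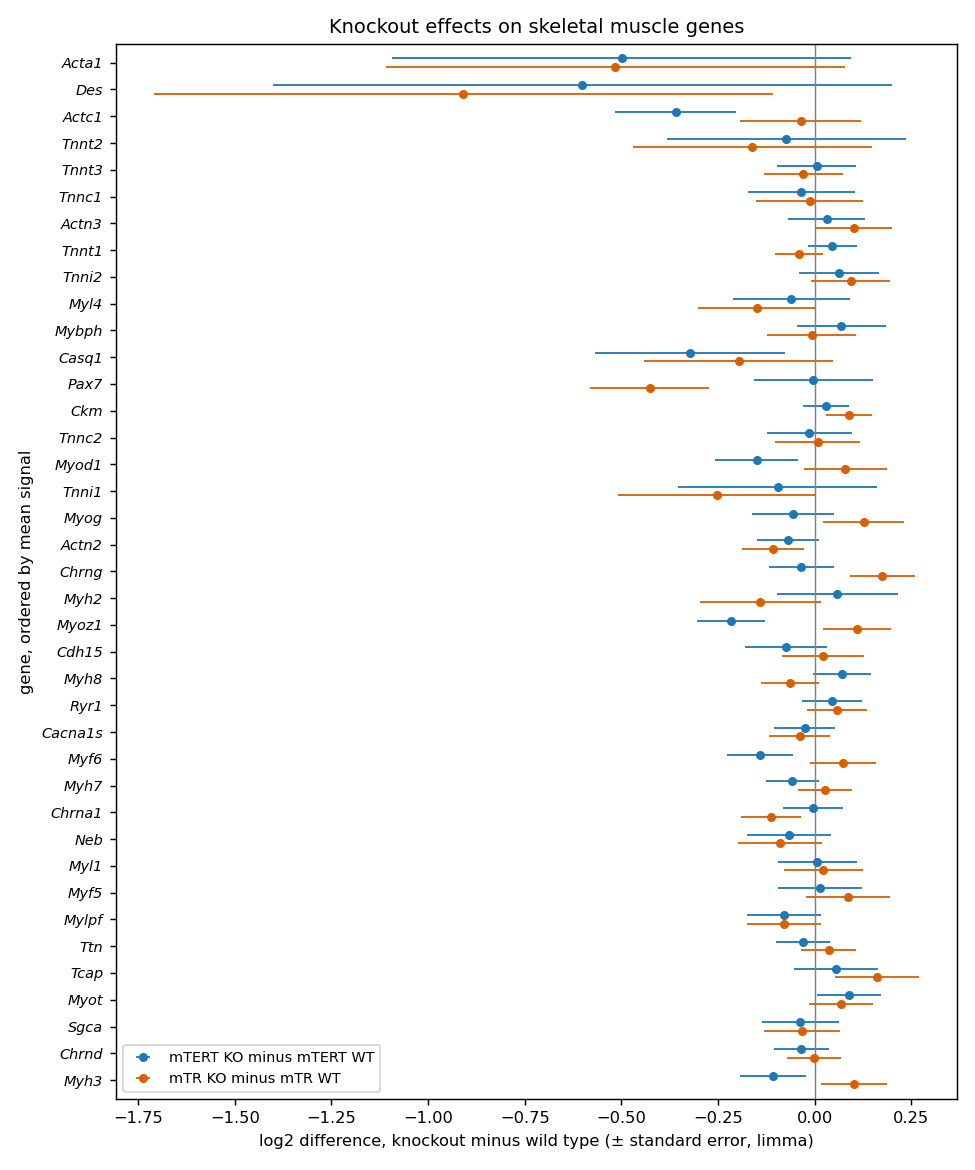
Difference of log2 signal, knockout minus wild type (horizontal axis, ± standard error of the limma fit, n = 3 per group), for the 39 members (vertical axis, ordered by mean signal) in the mTERT and the mTR comparison. The largest differences, of Des and Acta1, have the largest errors, and no member passed the test.

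Set against each other, mTERT WT and mTR WT differed in 0 of 39 members, against 5 of all probe sets (0.0173%). With the mTERT pairs as a replicate block the latter count was 17, and with single cultures left out it ran from 0 to 11, the latter without mTR WT 2, with 0 members in each case. The median of the members, mTERT WT minus mTR WT, was 0.05, against 0.01 for all probe sets. Myog (0.33 ± 0.11), Myoz1 (0.33 ± 0.09), Myh3 and Ckm were higher in all 3 mTERT WT cultures, 10.3% of the members, against 13.1% of all probe sets whose wild-type groups did not overlap. An unadjusted p under 0.05 was found for 6 of 39 members, Myog, Pax7, Myh3, Actc1, Myoz1 and Chrng. It was found for 1956 of 28853 probe sets, a smaller share than of the members, and this gap was not tested. Of the 6 members Pax7 was lower in mTERT WT (−0.37 ± 0.15) and Actc1 higher (0.38 ± 0.16), and the smallest adjusted p of a member was that of Myoz1, 0.483. Actc1 differed by 0.20 without mTERT WT 3, and Pax7 by −0.22 without mTR WT 3 and −0.59 without mTR WT 2. Without mTERT WT 3, Myog and Myoz1 were the only members with an unadjusted p under 0.05. In a fit of the 6 wild-type arrays alone, only Myog, Myh3 and Myoz1 had one.
Markers of other cell types differed between the wild types in the same comparison, with 0 of them called. All 9 macrophage genes were higher in mTERT WT, with a median of 0.81, which was 0.16 without mTR WT 1, 0.47 without mTERT WT 3, 1.29 without mTR WT 3 and 1.36 without mTERT WT 1. The 7 cell cycle genes all differed upward, by 0.17 in the median, which ran from 0.10 without mTERT WT 1 or mTR WT 2 to 0.27 without mTR WT 1. All 9 smooth muscle genes were lower. Their part in the differences of the members was not tested.

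A few members varied widely between cultures. Over the 12 cultures the SD was 1.08 for Des, above that of 99.9% of probe sets, 0.78 for Acta1, above 99.3%, and 0.47 for Tnnt2, above 97.0%. Casq1 (0.35) and Tnni1 (0.33) followed. The mean of the 11 members above background in all cultures was lowest in mTR KO 1, at 5.81, and highest in mTERT WT 3, at 6.81.
Des and Acta1 rose and fell together over the 12 cultures, with Pearson's r = 0.93 (permutation p = 2e-05, adjusted p = 0.00013 over the 13 relations computed) and Spearman's rho = 0.88 (permutation p = 0.00036). Without the 2 cultures farthest from the median of Acta1, mTR KO 1 and mTERT KO 2, r was 0.81. The relations were chosen after the values were seen. The mTERT cultures were taken as pairs and so not as independent, which the permutations ignore.
Tnni1 ran with Des as well (r = 0.80, permutation p = 0.00052, adjusted p = 0.00135, rho = 0.79, permutation p = 0.00325), at 0.75 without the 2 farthest cultures. The relation of Des to Tnnt2 (r = 0.63, permutation p = 0.0319, adjusted p = 0.0414, rho = 0.47, permutation p = 0.129) rested on the 2 farthest cultures, mTR KO 1 and mTR WT 3, without which r was 0.04.

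Markers of other cell types moved with these members. All 9 smooth muscle and myofibroblast genes measured, Acta2, Tagln, Cnn1 and Myh11 first, were above background in all 12 cultures. Their mean was 9.44 in mTR KO 1 and 9.69 in mTERT KO 2, the cultures lowest in Des and Acta1, and 9.91 to 10.42 in the others. Acta1 correlated with that mean at r = 0.91 (permutation p = 0.00012, adjusted p = 0.00052, rho = 0.84, permutation p = 0.00115), at 0.71 without the 2 farthest cultures. For Des r was 0.88 (permutation p = 0.00027, adjusted p = 0.000877, rho = 0.71, permutation p = 0.0128), at 0.63 without them. The list holds the actins Acta2 and Actg2, whose probes may share signal with those of Acta1. The relations were not computed without these actins. All 9 differences of the smooth muscle genes were negative in both knockout comparisons, with medians of −0.15 (mTERT) and −0.39 (mTR), and 0 were called. All 9 were negative for mTERT WT minus mTR WT as well, with a median of −0.17, which was −0.08 without mTERT WT 1, −0.09 without mTERT WT 2 and −0.28 without mTERT WT 3. The mTR median was −0.12 without mTR KO 1 and −0.62 without mTR KO 3, and the mTERT median ran from −0.04 without mTERT KO 2 to −0.32 without mTERT KO 3, with −0.05 without mTERT WT 3 and −0.24 without mTERT WT 2.
All 8 fibroblast genes were above background in every culture, among them the collagens Col1a1, Col1a2 and Col3a1 and the intermediate filament gene Vim, as the labelled cell type has it. The mean of this list ran from 10.15 in mTERT WT 3 to 11.44 in mTR KO 1 and mTERT KO 2, the reverse of the order of Acta1 at its ends. Acta1 correlated with it at r = −0.90 (permutation p = 1e-05, the smallest these permutations can give, adjusted p = 0.00013, rho = −0.91, permutation p = 9e-05), at −0.89 without the 2 farthest cultures. For Des r was −0.78 (permutation p = 0.00124, adjusted p = 0.00269, rho = −0.80, permutation p = 0.00275), at −0.66 without them. These relations are with a mean, and single fibroblast genes were not correlated. In each knockout comparison 5 of the 8 genes differed upward and 3 downward. Their differences ran from −0.04 to 1.21 (mTERT) and from −0.08 to 0.53 (mTR).
The macrophage genes, Csf1r, Ptprc and Cd68 among them, were also above background in every culture for 9 of 9. Their mean ran from 7.10 in mTR WT 1 to 10.16 in mTR KO 1, and it correlated with Acta1 at r = −0.30 (permutation p = 0.345, adjusted p = 0.345, rho = −0.19, permutation p = 0.556). Of 10 heart genes Nppb, Hand1 and Tnni3 were above background in all cultures, Nkx2-5 in 11 and Nppa in 3. Myl3 and Mybpc3 were above it in 1 culture each, and Myh6, the heavy chain of the heart, Myl7, the light chain of the atrium, and Myl2, a light chain of ventricle and slow muscle, in 0. The mean of the heart list ran from 4.78 in mTR KO 1 to 5.26 in mTERT WT 3.
The mean of 7 cell cycle genes ran against Acta1 (r = −0.69, permutation p = 0.0136, adjusted p = 0.0235, rho = −0.77, permutation p = 0.00456), and at −0.44 without the 2 farthest cultures, mTR KO 1 and mTERT KO 1. Of the other lists, 5 of 6 neural and Schwann genes, 4 of 6 adipocyte, 3 of 6 cartilage and 0 of 6 endothelial genes were above background in all 12 cultures. The part of these cell types in the signals of the members was not tested.

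**Figure D4:**
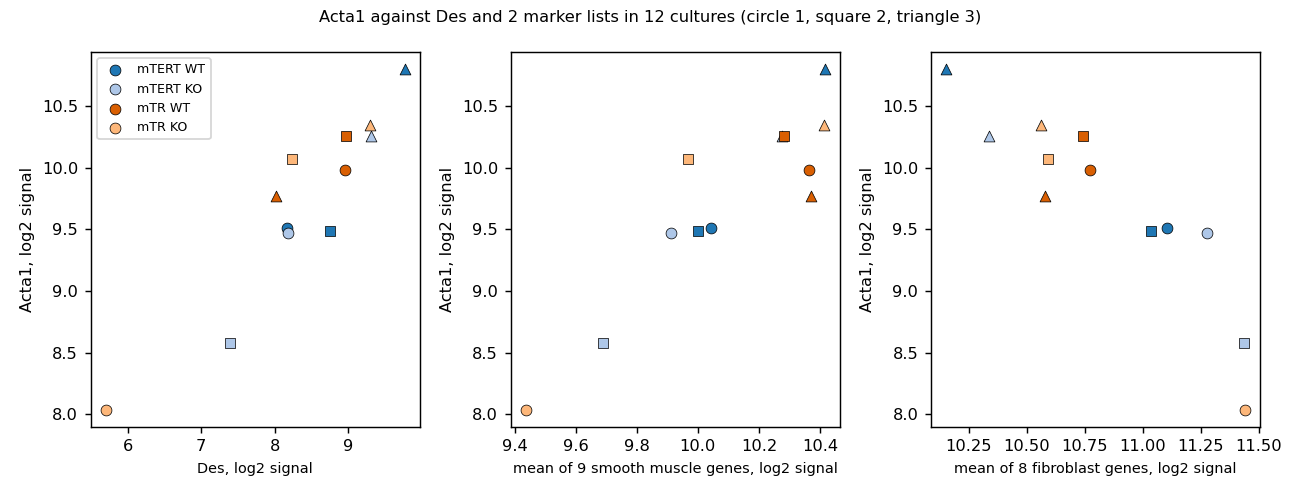
Log2 signal of Acta1 (vertical axis) against Des, the mean of 9 smooth muscle genes and the mean of 8 fibroblast genes (horizontal axes, log2 signal), 1 point per culture, coloured by group and shaped by culture number. Acta1 rises with Des and the mean of the smooth muscle genes (r = 0.93 and 0.91). It runs against the mean of the fibroblast genes (r = −0.90), with mTR KO 1 at one end of each plot.

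The rest of the muscle program was read from a list of 95 measured genes besides the members. Of these 36 were above background in all 12 cultures and 39 in none, and 0 were called in any of the 4 comparisons. Pax3, the factor of muscle progenitors and of neural crest, differed most between cultures of a group: it read 7.39, 6.14 and 5.46 in mTERT WT, 5.11, 5.20 and 5.09 in mTERT KO, 6.84, 5.47 and 7.67 in wild types of the mTR line and 7.83, 5.26 and 5.36 in its knockouts. All mTERT KO cultures were below all mTERT WT cultures (−1.20 ± 0.72, adjusted p = 1), and the mTR groups overlapped (−0.51 ± 0.72). The highest Pax3 value was in mTR KO 1, the culture with the lowest Des and Acta1. Eya1, a regulator in muscle progenitors, was likewise highest in that culture, at 6.78, against 4.95 to 6.34 elsewhere. In mTERT KO 2, the next lowest in Des and Acta1, Pax3 read only 5.20 and Eya1 5.39. No relation of Pax3 or Eya1 to Des or Acta1 was computed.
Myom1, the M-band protein myomesin, read 8.04, 7.81 and 9.24 in mTERT WT, 7.65, 7.54 and 9.02 in mTERT KO, 9.47, 9.27 and 9.58 in wild types of the mTR line and 7.52, 8.23 and 9.48 in its knockouts. Its mTR difference was −1.03 ± 0.52 (adjusted p = 0.840). Ankrd1, a stress-responsive sarcomere protein that also acts in non-muscle cells, read 8.88 in mTR KO 1 and 10.24 to 11.73 in the other 11 cultures.
At the other ends of the mTERT ranking, Xirp1 (0.16 ± 0.06), Myoz3 (0.12 ± 0.09) and Pygm (0.09 ± 0.07) differed upward and Csrp3 (−0.14 ± 0.08) and Casq2 (−0.13 ± 0.08) downward. In the mTR ranking Musk (0.22 ± 0.08), Sln (0.23 ± 0.09) and Fgfr4 (0.17 ± 0.07) stood highest and Myl6b (−0.21 ± 0.07) and Mef2d (−0.15 ± 0.08) lowest beside Myom1. Of these 10 genes 6 were above background in 0 cultures, namely Xirp1, Csrp3, Casq2, Musk, Sln and Fgfr4.
The factors known to hold back myogenic factors were present. Of 12 such genes, among them the Id proteins, the Twist factors and Notch1, 11 were above background in all cultures and 0 were called in any comparison. The lowest mTR difference was that of Id3 (−0.35 ± 0.11, adjusted p = 0.839), which was named after its value was seen. The highest of these genes in that comparison was 0.32. Between the wild types their differences ran more widely, from −0.66 to 0.69.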

How the data were processed

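RNA of 12 fibroblast cultures had been hybridised to 1 array each. The deposited log2 values were made by the authors with GCOS 1.4, Affymetrix Expression Console and PLIER, per the submitters' processing notes, which give no role for each tool. The normalization between arrays and the genome build are not given in the sources used here. Arrays correlated at 0.984 to 0.997, and their quantiles differed by at most 0.08, so values were used as deposited.

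A limma 3.58.1 model (R 4.3.3) with 4 group means was fitted to all probe sets, without a filter (8 residual and 3.14 prior degrees of freedom), with Benjamini-Hochberg adjustment over 28853 probe sets and a threshold of 0.05. The fit was tested on simulated data with the same spread for every probe set and no pairs. That test does not bear on genes as variable as Des and Acta1. Errors of differences are standard errors. With 3 arrays a group, p-values measure the spread between these cultures, pooled over the 4 groups. Permutation tests used 100000 draws, two-sided, and Python 3.11.15 with scipy 1.17.1.

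Members and lists were chosen with earlier results of these data known. Values per culture are given for members above background in 3 or more cultures and for Myoz1, added after its values were seen. Of the other muscle genes, the 3 highest and 3 lowest moderated t of each knockout comparison and the 4 largest SD among those above background in 3 or more cultures were named, and of marker lists the first 4 genes. All 10 genes of the heart list were named, beyond that rule.

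The numbers 1 to 3 were checked as pairs on the 14427 brighter probe sets, since the design text describes littermates in sets. Deviations from the group means correlated at 0.674, 0.733 and 0.790 for mTERT cultures of the same number, so these were taken as pairs. The other mTERT values, from −0.525 to −0.184, add little, since deviations cancel within a group and high values force others down. In the mTR line same-numbered cultures correlated at −0.156, 0.289 and −0.377, so those were not taken as pairs. Between the lines the values ran from −0.599 to 0.568 for knockouts and from −0.320 to 0.527 for wild types. A high value alone thus does not mark a pair, and the labels do not say what the numbers mean.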

Additional observations from a re-analysis of the deposited data

How the results depend on the processing

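No member was called under any alternative in the 4 comparisons: the replicate block (mTERT pairs, or all same-numbered cultures), quantile normalization, a trended and robust variance, array weights, the brighter probe sets (which kept 8 members), the 6 arrays compared (not for the difference of effects), and each culture left out in turn. In this balanced design the replicate block cannot change a difference, only its error. The median differences of the members thus had to stay at −0.03 (mTERT) and −0.01 (mTR). The block changed no call of a member. Leaving out single cultures gave medians from −0.05 to 0.01 (mTERT), −0.04 to 0.08 (mTR), −0.03 to 0.09 (difference of effects) and 0.00 to 0.09 (wild types). The brighter probe sets gave a wild-type median of 0.12 in place of 0.05 and a difference of effects of −0.03 in place of 0.02, and array weights an mTR median of 0.03 in place of −0.01. Without mTR KO 1 the mTR differences of Des and Acta1 turned to 0.11 (adjusted p = 0.992) and 0.21 (adjusted p = 0.978). Over single cultures left out they ran from −1.69 to 0.11 and from −0.95 to 0.21, and the adjusted p over all alternatives from 0.566 to 0.992 and from 0.675 to 0.993. That of Casq1 turned from −0.20 to 0.091 with array weights and ran from −0.43 to 0.043, the latter without mTR WT 2, with single cultures left out. The count of members above background in 3 or more cultures was 10, in place of 19, with a level above 99% of the probe sets for olfactory receptors and 10 with the array median, and in all 12 cultures it was 6 with the array median and 8 with the 99% level, in place of 11. A mean over probe sets of a gene equals the values used, since each member has 1. For most members the signal lies near background, where a change of expression could leave the signal as it is, and 3 cultures per group limit what differences of Des or Acta1 could pass the test.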
